A study of Mus musculus with 12 samples.

Results

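Chromatin at transfer RNA (tRNA) genes gave a higher accessibility signal in mouse T cells cultured with DFMO, an inhibitor of ornithine decarboxylase and so of polyamine synthesis. The set described here holds 152 of the 48443 peaks of an ATAC-seq count table. ATAC-seq measures accessible DNA by the insertion of a transposase. A peak belonged to the set when it overlapped a gene annotated as a tRNA in the RefSeq annotation of build mm10, or lay within 200 bp of one (a choice by position). The 152 peaks stood at 209 of the 408 nuclear tRNA genes of the annotation (51.2%).

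Naive CD4+CD44-CD62L+CD25- T cells from the spleens of 3 wild-type C57BL/6 mice, whose age the labels do not give, were activated on plates coated with antibodies to CD3 and CD28, each used at 1 µg/ml. Cultures with IL-6 (25 ng/ml) and TGFb1 (2 ng/ml) gave the non-pathogenic Th17 cells, called Th17n. Cultures with TGFb1 (2 ng/ml) as the only cytokine gave the induced regulatory T cells, called iTreg, so all groups shared TGFb1. The 4 groups were Th17n with 100 µM DFMO, Th17n with vehicle, iTreg with 100 µM DFMO and iTreg with vehicle, each harvested live at 68 h and frozen before the assay, with 1 library from each of the 3 animals. The comparisons were DFMO against vehicle within each lineage, the difference between these effects, and Th17n against iTreg under each treatment. Total counts in peaks ran between 1020937 and 6496550 per library, the shallowest and the deepest both being Th17n vehicle libraries.

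A tRNA gene is short and carries its promoter inside the transcribed part, as an A box and a B box. The factor TFIIIC binds these boxes and places TFIIIB upstream of the start, which in turn recruits RNA polymerase III. Genes with different anticodons that carry the same amino acid are called isoacceptors, and many genes of a genome encode identical or nearly identical tRNAs. In the symbols used here, the capital letter after n-T is the amino acid in the one-letter code and the 3 small letters are the anticodon, so n-TRcct5 is an arginine tRNA gene with anticodon CCT.

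The internal promoter is shown for 3 of the 6 member genes that overlapped a RefSeq promoter window of a neighbouring gene (build GRCm38.p6). These 3 lay wholly inside the window, which is how their sequence could be read, and held a B box motif on 1 strand only. The B box was thus a condition for showing them. Capitals mark the A box first and the B box second, and the strand is the one that holds the B box. The search used GTTCGANNC and GTTCAANNC on both strands. They are n-TRtcg5 at chr7:79466419-79466491 on the plus strand beside Polg, n-TAagc16 at chr13:21222586-21222657 on the plus strand beside Gm32420, and n-TVcac9 at chr13:23446142-23446214 on the minus strand beside Gm46404.
n-TRtcg5: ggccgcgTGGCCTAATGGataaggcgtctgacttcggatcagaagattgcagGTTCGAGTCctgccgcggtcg
n-TAagc16: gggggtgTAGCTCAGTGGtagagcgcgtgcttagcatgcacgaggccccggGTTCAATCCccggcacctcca
n-TVcac9: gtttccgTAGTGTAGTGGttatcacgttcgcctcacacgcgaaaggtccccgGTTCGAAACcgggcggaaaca
The anticodon of the symbol began at base 34, 33 and 34 of these genes. A B box motif occurred in 1177 of all 32851 promoter windows of 300 bases (3.58%) and in 6 of the 43 windows that overlapped a tRNA gene peak (14%). These peaks were chosen for lying at tRNA genes, which carry a B box, so the second share is not an independent result. A match of these letters is a description of the sequence and does not show that a factor was bound.

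The peaks at these 3 genes gave a first view of the data, in TMM-scaled CPM (counts relative to the library total) of animals 1, 2 and 3. At n-TRtcg5 the values were 118, 108 and 103 CPM in Th17n with DFMO, against 76.4, 86.2 and 66.4 CPM in Th17n with vehicle. The same peak had 128, 157 and 134 CPM in iTreg with DFMO and 117, 119 and 122 CPM in iTreg with vehicle. The Th17n groups did not overlap (log2 fold change 0.52 ± 0.13 SE, adjusted p = 0.0065), while the iTreg change of 0.23 ± 0.12 did not pass (adjusted p = 0.26). The peak at n-TAagc16 was higher with DFMO in Th17n by 1.06 ± 0.28 (adjusted p = 0.013) and had a log2 change of 0.05 ± 0.26 in iTreg. The peak shared by n-TVcac9 and n-TRacg5 was higher by 0.48 ± 0.15 in Th17n (adjusted p = 0.038) and by 0.49 ± 0.15 in iTreg (adjusted p = 0.027). These calls depended on single libraries. The n-TRtcg5 call was lost without Th17n DFMO replicate 1 or without Th17n vehicle replicate 3 (adjusted p up to 0.153), that of n-TAagc16 without Th17n DFMO replicate 1 or 3 or Th17n vehicle replicate 1 or 2 (up to 0.0807). The Th17n call of n-TVcac9 was lost without any one of its 6 libraries (up to 0.248), and its iTreg call without iTreg DFMO replicate 1 or 3 or iTreg vehicle replicate 1 or 3 (up to 0.139).

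Which tRNA genes had a peak differed by amino acid and chromosome. A peak was present at 17 of 22 valine genes (77.3%), 12 of 16 proline genes (75%), 16 of 22 serine genes (72.7%), 18 of 25 leucine genes (72.0%), 5 of 7 phenylalanine genes (71.4%) and 17 of 24 arginine genes (70.8%). The lowest shares were 5 of 16 aspartate genes (31.3%) and 5 of 56 cysteine genes (8.93%). Of the 53 tRNA genes on chromosome 6, 3 had a peak, and of the 17 on chromosome X, 1 had. Chromosome 13 held 47 of the 152 peaks (30.9%), at 65 of its 105 tRNA genes, chromosome 11 held 22 peaks at 39 of 52 genes, and chromosome 3 held 15 peaks at 19 of 40 genes. The reads were 37 bp pairs, and how reads from identical tRNA genes were placed is not given in the sources used here. Near-identical copies are therefore uncertain, both in which of them carries the signal and in how much.

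The peaks were wide and strong for this table. Their median width was 867.5 bp, with a range of 185 to 2295 bp, against 480 bp over all peaks. A single tRNA gene lay at 113 of them, 2 genes at 26, 3 genes at 8 and 4 genes at 5, and 165 of the 209 genes lay wholly inside their peak. Where a peak had 1 gene, the gene's centre was a median of 167.5 bp from the peak's centre. Per kb of peak, the mean level over the 12 libraries had a median of 46.2 CPM/kb over the set (range 4.23 to 109), against 22.0 CPM/kb over all peaks and 37.4 CPM/kb over peaks within 1 kb of an end of a protein-coding gene. The highest were the peak of n-TAagc8 on chromosome 4 and that of n-TTtgt1 and n-TYgta10 on chromosome 14 (109 CPM/kb each), followed by n-TIaat16 on chromosome 7 (107 CPM/kb). The gene n-TAagc8 lies beside its peak without overlapping it, its centre 412 bp from the peak's centre. An end of a protein-coding gene lay within 1 kb of 34 of the 152 peaks.

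Each library was first summarised by the share of its counts that fell in these peaks. In Th17n with DFMO it was 0.798%, 0.772% and 0.799% in animals 1, 2 and 3, against 0.477%, 0.528% and 0.507% in Th17n with vehicle. In iTreg with DFMO it was 0.796%, 0.914% and 0.841%, against 0.714%, 0.716% and 0.686% in iTreg with vehicle. All 3 DFMO libraries lay above all 3 vehicle libraries in each lineage, the Th17n vehicle libraries were the lowest of the 12, and animal 2 of iTreg with DFMO was the highest. The means were 0.790% ± 0.0154 in Th17n with DFMO, 0.504% ± 0.0258 in Th17n with vehicle, 0.851% ± 0.0597 in iTreg with DFMO and 0.705% ± 0.0168 in iTreg with vehicle (SD, n = 3 each). Within a library the counting error was small: the widest 95% Wilson interval of a share, in Th17n vehicle animal 1, ran from 0.463% to 0.490%. These intervals cover counting error only.

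**Figure D1:**
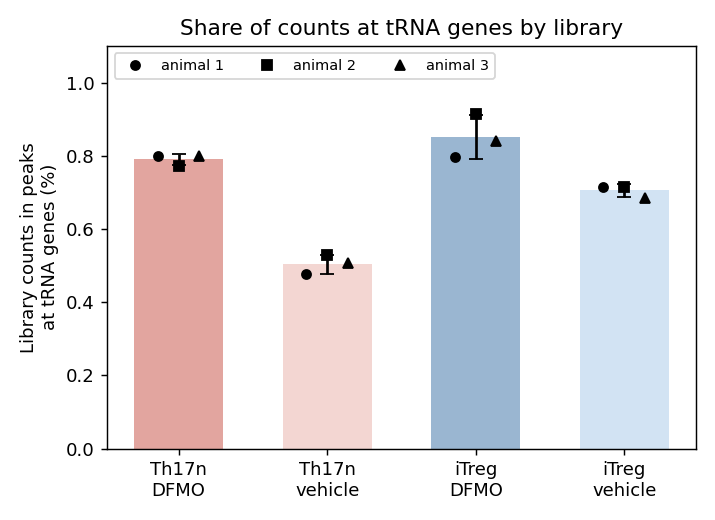
Percentage of each library's counts in the 152 peaks at tRNA genes (vertical axis), by group (horizontal axis). Bars are means, error bars SD over 3 animals, and points are libraries, with 1 symbol per animal. The 3 Th17n vehicle libraries sit between 0.477% and 0.528%, below all 9 other libraries.

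The share of counts was also taken for other sets of peaks. The share in protein-coding gene ends away from tRNA genes averaged 48.1% in Th17n with DFMO and 46.0% in Th17n with vehicle, and 56.3% in iTreg with DFMO and 54.9% in iTreg with vehicle. The 38 peaks within 200 bp of genes for small nuclear RNAs (snRNA) held 0.344% of counts in Th17n with DFMO and 0.200% in Th17n with vehicle, and 0.336% in iTreg with DFMO and 0.273% in iTreg with vehicle. The snRNA gene share was thus also higher with DFMO in both lineages. In bulk libraries, a change in how many cells have a site open and a change in how open it is per cell cannot be told apart.

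In Th17n, 89 of the 151 tested peaks were higher with DFMO and 0 were lower at an adjusted p under 0.05 (edgeR quasi-likelihood test across all 43726 tested peaks, Benjamini-Hochberg). Over all tested peaks 8.78% were called, 4.5% higher and 4.28% lower, against 58.9% higher in the set. The median log2 fold change of the set was 0.71 (quartiles 0.39 and 1.12, range −0.43 to 3.42), against 0.01 over all tested peaks, and 143 of 151 peaks were above 0. In 111 peaks all 3 DFMO libraries exceeded all 3 vehicle libraries (14.6% of all tested peaks did so), and in 1 they were all below (14.9%). DFMO exceeded the vehicle library of the same animal in 3 of 3 animals at 124 peaks, a count that was not taken over all tested peaks. The count of higher peaks was 51 without Th17n DFMO replicate 1 and 53 without Th17n vehicle replicate 3. The counts of higher peaks over the whole table in those fits were 748 and 728, against 1968 with all libraries. The peak of n-TEttc8 did not pass the filter on low counts, with 30 counts in all over 12 libraries.

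In iTreg, 30 of the 151 peaks were higher with DFMO and 0 were lower, that is 19.9% of the set, while 8.56% of all tested peaks were called, 3.84% higher and 4.72% lower. The median log2 fold change was 0.37 (quartiles 0.16 and 0.61, range −0.69 to 1.90), against −0.01 over all tested peaks, and 126 peaks were above 0. The groups did not overlap at 63 peaks with DFMO above (11.4% of all tested peaks) and at 3 with DFMO below (12.2%). DFMO exceeded vehicle within the animal in 3 of 3 animals at 85 peaks, again without a count over all tested peaks. The count was 15 without iTreg DFMO replicate 3 and 13 without iTreg vehicle replicate 3, where the whole table had 621 and 649 higher peaks against 1677 with all libraries. Without iTreg DFMO replicate 2, the library with the highest share of counts in these peaks, 24 peaks were higher, 1 was lower and the median was 0.31.

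**Figure D2:**
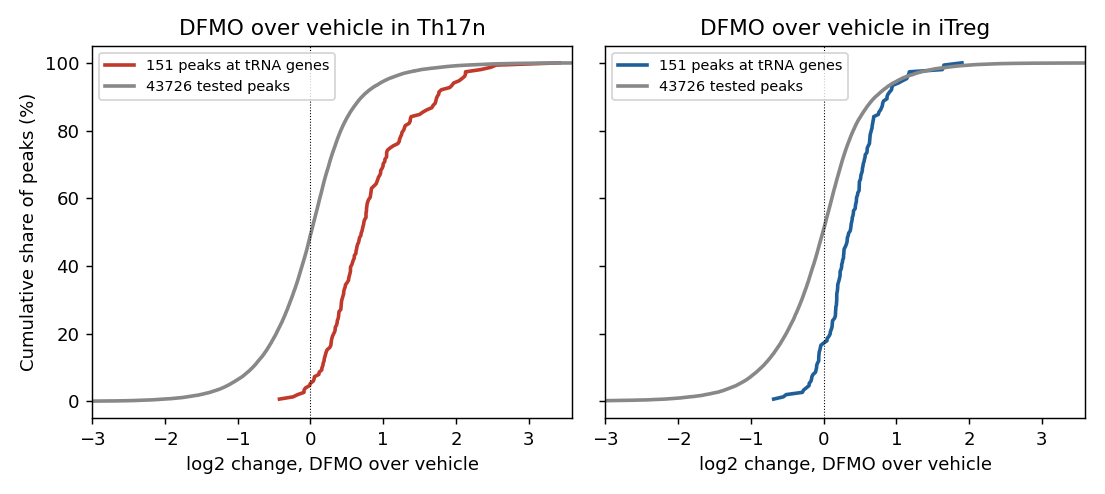
Cumulative percentage of peaks (vertical axis) against the log2 change with DFMO over vehicle (horizontal axis, shown from −3 to 3.6) in Th17n (left) and iTreg (right). The coloured line is the 151 tested peaks at tRNA genes and the grey line all 43726 tested peaks; the medians of the set are 0.71 in Th17n and 0.37 in iTreg, and those of all peaks are near 0.

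The smallest adjusted p in Th17n was at the peak of 3 arginine tRNA genes, n-TRcct5, n-TRcct3 and n-TRtcg4 (mm10, chromosome 11, 115412420 to 115414041), which overlaps Mrpl58, a mitochondrial ribosomal protein gene. It had 214, 179 and 206 CPM in Th17n with DFMO, against 81.2, 103 and 99.3 CPM in Th17n with vehicle. It had 187, 221 and 188 CPM in iTreg with DFMO, against 170, 157 and 164 CPM in iTreg with vehicle. The Th17n vehicle libraries stood apart from the other 9, at a lower level. The log2 fold change was 1.05 ± 0.11 in Th17n (adjusted p = 1.8e-08) and 0.28 ± 0.11 in iTreg (adjusted p = 0.099).

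On chromosome 19, the single phenylalanine gene n-TFgaa6 (12002169 to 12002570) lay at a narrow peak 8055 bp from the nearest protein-coding gene, Osbp. Its values were 53.4, 48.1 and 54.5 CPM in Th17n with DFMO, against 16.0, 11.7 and 14.6 CPM in Th17n with vehicle (1.95 ± 0.22, adjusted p = 5.4e-08). In iTreg it had 40.4, 69.7 and 50.8 CPM with DFMO, against 38.3, 27.8 and 28.1 CPM with vehicle (0.81 ± 0.20, adjusted p = 0.0066). The groups were separate in both lineages, and in iTreg animal 2 was far above the others with DFMO. The iTreg call was lost without iTreg DFMO replicate 2 or without iTreg vehicle replicate 2 or 3 (adjusted p up to 0.0688). In the same cluster, 1594 bp of open chromatin covered n-TLtaa4, n-TRtct1, n-TVtac1 and n-TVtac2, genes for leucine, arginine and valine. This peak was higher with DFMO by 0.99 ± 0.12 in Th17n (adjusted p = 4.9e-07) and by 0.49 ± 0.12 in iTreg (adjusted p = 0.0047).

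The largest fold change was at n-TItat14, the only isoleucine gene with anticodon TAT in the annotation (chromosome 13, 21896723 to 21897117). It had 15.3, 14.1 and 22.1 CPM in Th17n with DFMO, against 0.944, 1.37 and 2.00 CPM in Th17n with vehicle (3.42 ± 0.44, adjusted p = 7.4e-07). Those vehicle values came from 1, 9 and 7 counts, near the floor, so the size of this change is uncertain. In iTreg the peak had 15.7, 18.3 and 11.1 CPM with DFMO, against 4.14, 4.22 and 5.61 CPM with vehicle (1.63 ± 0.37, adjusted p = 0.0029). The groups did not overlap in either lineage. Between the DFMO groups, Th17n differed from iTreg by 0.19 ± 0.34 (adjusted p = 0.70). The tyrosine gene n-TYgta5 (chromosome 13, 23426864 to 23427151) gave 30.3, 22.2 and 36.3 CPM in Th17n with DFMO, against 3.77, 5.18 and 5.15 CPM in Th17n with vehicle (2.55 ± 0.33, adjusted p = 8.7e-07). In iTreg with DFMO it gave 27.1, 48.0 and 26.5 CPM, against 10.4, 11.6 and 5.61 CPM in iTreg with vehicle (1.90 ± 0.30, adjusted p = 3.0e-05), the smallest adjusted p of the set in iTreg. Vehicle libraries of both lineages were low at this gene, and every DFMO library was above every vehicle library.

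Next in order of adjusted p in iTreg came the glycine gene n-TGacc1 on chromosome 11 (48823724 to 48824061), the only glycine gene with anticodon ACC in the annotation. It had 35.5, 37.6 and 37.3 CPM in iTreg with DFMO, against 15, 12.9 and 8.31 CPM in iTreg with vehicle (1.65 ± 0.28, adjusted p = 9.3e-05). In Th17n it had 23.4, 20.9 and 25.3 CPM with DFMO, against 1.89, 4.26 and 8.01 CPM with vehicle (2.13 ± 0.32, adjusted p = 1.5e-05). Those vehicle values came from 2, 28 and 28 counts, so the size of the Th17n change is uncertain. All 3 libraries of each DFMO group lay close together, while the vehicle libraries varied more. The peak of n-TVaac6 and n-TAagc11, valine and alanine genes on chromosome 13, was higher by 1.65 ± 0.30 in iTreg and 1.92 ± 0.36 in Th17n. The peak of n-TDgtc14 and n-TAtgc5, aspartate and alanine genes on chromosome 5, was higher by 0.87 ± 0.18 in iTreg and 1.00 ± 0.20 in Th17n. These 2 peaks passed in both lineages, with adjusted p of 0.00032 and 0.0016 in iTreg and 0.0004 and 0.00073 in Th17n. At n-TAagc9, an alanine gene at a peak on chromosome 19 within 1 kb of an end of Ppp6r3, the change was 0.57 ± 0.12 in iTreg (adjusted p = 0.0017). Its Th17n change of 0.45 ± 0.13 (adjusted p = 0.022) lost its call without any one Th17n library other than vehicle replicate 2 (adjusted p up to 0.22), and with offsets fitted by abundance, no filter on low counts or counts thinned to the shallowest library (adjusted p up to 0.12).

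**Figure D3:**
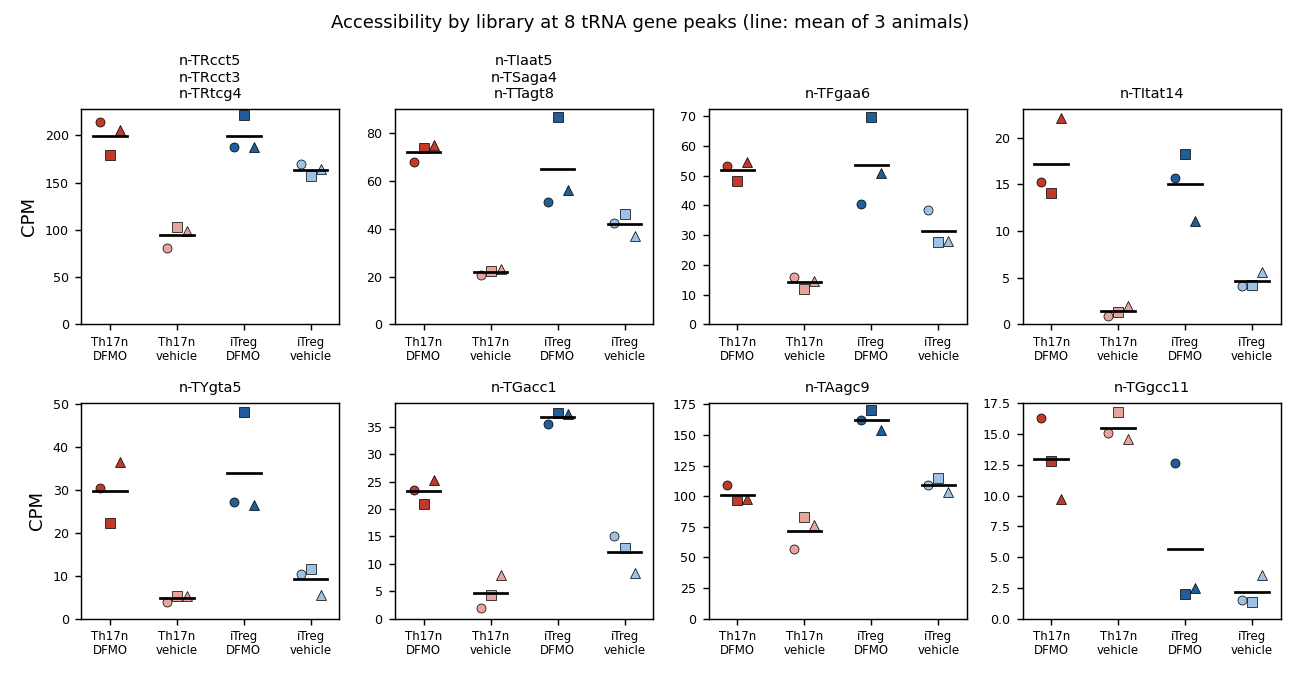
CPM in each library (vertical axis, from 0, a separate scale in each panel) for 8 peaks, by group (horizontal axis); circles, squares and triangles are animals 1, 2 and 3, and lines are means of 3 animals. At n-TItat14 and n-TYgta5 all DFMO libraries lie above all vehicle libraries, and at n-TGgcc11 animal 1 of iTreg with DFMO (12.7 CPM) lies apart from animals 2 and 3 (1.98 and 2.46 CPM).

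The 8 peaks below 0 in Th17n did not pass the test. The lowest was n-TVcac8, a valine gene on chromosome 13, at −0.43 in Th17n (adjusted p = 0.55) and −0.51 in iTreg (adjusted p = 0.39). In iTreg the lowest was n-TAagc15 on chromosome 5, at −0.69 (adjusted p = 0.088), which stood at 0.15 in Th17n.

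The set was described by amino acid, with a peak at genes of several amino acids counted under each. Every one of the 20 amino acids had a peak that was higher with DFMO in Th17n and none had a lower one. Of the arginine peaks, 13 of 15 were higher, with a median log2 change of 1.05, and 5 of 15 were higher in iTreg, with a median of 0.49. For alanine 10 of 14 peaks were higher in Th17n (median 0.96) and 5 in iTreg (median 0.50), and for valine 10 of 15 in Th17n (median 0.90) and 7 in iTreg (median 0.49). All 5 aspartate peaks were higher in Th17n and 2 in iTreg. At the other end, 2 of 4 cysteine peaks (median 0.42), 1 of 4 histidine peaks (median 0.52) and 5 of 11 glutamate peaks (median 0.53) were higher in Th17n. The groups are small and share peaks, and differences between amino acids were not tested.

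Isoacceptors were read out by anticodon. Arginine genes with anticodon TCG had 4 of 4 peaks higher in Th17n (median 1.40), those with anticodon ACG 4 of 4 (median 1.04) and those with anticodon CCG 3 of 3 (median 1.05). Anticodon TCT had 2 of 3 higher (median 0.99) and anticodon CCT 1 of 2 (median 0.82). Among serine genes, 5 of 6 peaks with anticodon AGA were higher in Th17n (median 1.44) and 1 of 3 with anticodon CGA (median 0.83). Glycine genes with anticodon GCC, the most numerous of that amino acid in the set, had 3 of 9 peaks higher in Th17n (median 0.55) and 0 of 9 in iTreg (median 0.38). The 11 methionine peaks, all anticodon CAT, had 6 higher in Th17n (median 0.76) and 3 in iTreg (median 0.45). The symbols do not separate initiator methionine genes from elongator ones.

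**Figure D4:**
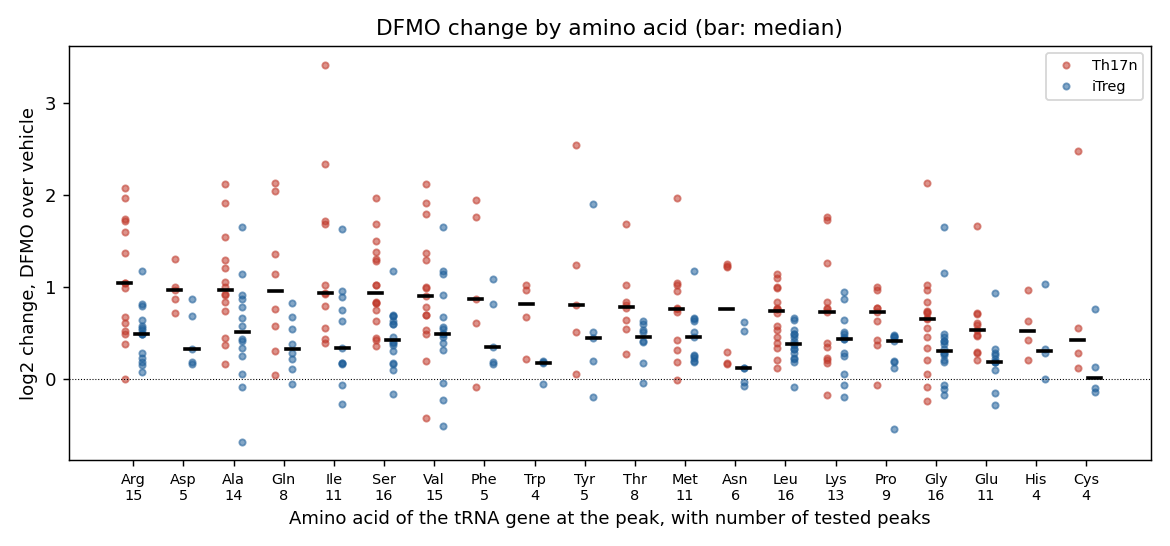
Log2 change with DFMO over vehicle (vertical axis) of each tested peak, by the amino acid of its tRNA gene (horizontal axis, ordered by the Th17n median, with the number of peaks), in Th17n (red) and iTreg (blue); black bars are medians. All 20 Th17n medians are above 0, between 0.42 for cysteine and 1.05 for arginine.

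Median changes were larger among peaks in clusters. There were 11 runs of 3 or more peaks with gaps of at most 100 kb, holding 84 peaks, of which 61 were higher in Th17n (median 0.99) and 22 in iTreg (median 0.51). Of the 67 peaks outside runs, 28 were higher in Th17n (median 0.42) and 8 in iTreg (median 0.18). On chromosome 13, the run from 21855138 to 22051434 had 13 of 17 peaks higher in Th17n (median 1.30), that from 23412214 to 23530506 had 13 of 14 (median 1.17) and that from 23285438 to 23309103 had 3 of 4 (median 1.76). The other run there, from 21160786 to 21326944, had 6 of 11 (median 0.77). In iTreg these 4 runs had 4, 5, 2 and 2 higher peaks, and no peak of any run was lower in either lineage. The run on chromosome 11 from 69037032 to 69125804, which holds 17 tRNA genes, had 5 of 7 peaks higher in Th17n (median 0.96) and 1 in iTreg (median 0.18). Neighbouring peaks are not independent, and the difference between clustered and scattered peaks was not tested.

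Most peaks held 1 tRNA gene. With 1 gene, 56 of 112 peaks were higher in Th17n (median 0.58), with 2 genes 21 of 26 (median 0.79), with 3 genes 8 of 8 (median 1.03) and with 4 genes 4 of 5 (median 0.96). These differences were not tested. The 6 peaks that lay near a tRNA gene without overlapping it had 0 calls in either lineage, with medians of 0.19 in Th17n and −0.15 in iTreg. The 17 tested peaks 200 bp to 1 kb from a tRNA gene, which are not members, had 2 higher and 1 lower in Th17n (median 0.21) and 1 higher and 1 lower in iTreg (median −0.10).

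Members were also split by whether a protein-coding gene end lay within 1 kb. Without such an end within 1 kb, 72 of 117 peaks were higher in Th17n (median 0.77) and 25 in iTreg (median 0.41). With one, 17 of 34 were higher in Th17n (median 0.45) and 5 in iTreg (median 0.18). Peaks at protein-coding gene ends without a tRNA gene had 509 higher and 242 lower of 11758 in Th17n (median 0.08) and 429 in each direction in iTreg (median 0.04). Of the 4324 strongest tested peaks away from tRNA genes, the top 10% by mean CPM, 397 were higher and 93 lower in Th17n (median 0.12), and 338 were higher and 216 lower in iTreg (median 0.08). Of the peaks at snRNA genes, 30 of 38 were higher and 1 lower in Th17n (median 0.86), and 10 were higher and 0 lower in iTreg (median 0.32). Peaks at small nucleolar RNA genes had 4 higher and 3 lower of 45 in Th17n, and 3 higher and 1 lower in iTreg.

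The DFMO effect was compared between the lineages. Of the set, 27 peaks were higher in both (0.796% of all tested peaks were) and 0 were lower in both (0.913%). Of the rest, 62 passed in Th17n alone, 3 in iTreg alone and 59 in neither. Thus 30.3% of the 89 peaks higher in Th17n were also called in iTreg, and 90.0% of the 30 higher in iTreg were also called in Th17n. These 2 shares have unlike denominators and do not measure how specific the effect is to a lineage. Over all tested peaks, 348 were higher in both lineages, among 1968 higher in Th17n and 1677 higher in iTreg. The 3 peaks of the set that passed in iTreg alone were the peak of n-TPagg2 and n-TPcgg2, that of n-TStga3 and that of n-TKctt17, named here because they are so few. Their Th17n changes were also above 0, at 0.37, 0.36 and 0.23. The Th17n change exceeded the iTreg change at 132 of 151 peaks, and the 2 changes had a Spearman rho of 0.67 over the 151 peaks, which share libraries and are not independent.

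**Figure D5:**
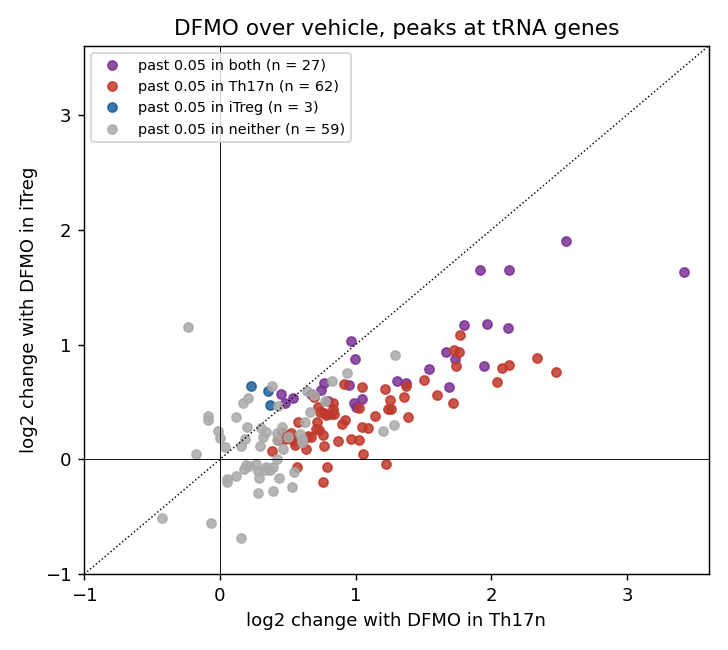
Log2 change with DFMO over vehicle in iTreg (vertical axis) against that in Th17n (horizontal axis) for the 151 tested peaks, coloured by the lineages in which the adjusted p was under 0.05; the dotted line marks equal changes. Of the points, 120 lie above 0 on both axes, and 132 lie below the dotted line.

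Tested directly, the difference of the effects passed at 6 peaks, all with the larger effect in Th17n (3.97%, against 1.31% of all tested peaks called, 0.835% in that direction and 0.478% in the other). The median difference was 0.42, against 0.04 over all tested peaks. With animal as a block the count was 10. The count was between 0 and 3 without any one of the 3 Th17n DFMO libraries, the 3 Th17n vehicle libraries, iTreg DFMO replicate 1 or 3 or iTreg vehicle replicate 2, and 14 without iTreg DFMO replicate 2. The whole table moved as well. It had 365 peaks with the larger effect in Th17n in the main fit and 448 with the block. It had 132 without iTreg DFMO replicate 3, where the set had 0, and 947 without iTreg DFMO replicate 2. Of the 6 peaks, 3 lay in the chromosome 11 run that starts at 69037032. Among these 6 the largest difference was at n-TFgaa6 (1.14 ± 0.30, adjusted p = 0.039) and the smallest adjusted p at n-TRcct5, n-TRcct3 and n-TRtcg4 (0.76 ± 0.16, adjusted p = 0.0062). At the peak of n-TPcgg3, n-TDgtc9, n-TGtcc6 and n-TWcca7, genes for proline, aspartate, glycine and tryptophan, values were 186, 193 and 200 CPM in Th17n with DFMO, against 90.6, 101 and 101 CPM in Th17n with vehicle. The iTreg values there were 162, 231 and 164 CPM with DFMO and 168, 156 and 169 CPM with vehicle, so that the iTreg groups overlapped and the Th17n groups did not. At n-TKctt15, a lysine gene, the iTreg change was −0.20 ± 0.18 (adjusted p = 0.56) and the Th17n change 0.76 ± 0.19 (adjusted p = 0.0072). That Th17n call was lost without Th17n DFMO replicate 1 or without Th17n vehicle replicate 2 or 3 (adjusted p up to 0.117).

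Between lineages under vehicle, tRNA gene peaks were less accessible in Th17n than in iTreg. This was not particular to tRNA genes. With vehicle, protein-coding gene ends away from tRNA genes held 46.0% of counts in Th17n and 54.9% in iTreg. The 4794 strongest of all peaks away from tRNA genes held 36.6% and 44.1%, and the peaks at snRNA genes 0.200% and 0.273%. Of the 151 peaks, 90 were lower and 1 was higher in Th17n, where 44.6% of all tested peaks were called, 25.2% higher and 19.3% lower. The median log2 difference was −0.56, against −0.07 over all tested peaks, and the groups did not overlap at 108 peaks with Th17n below (25.5% of all tested peaks). With offsets fitted by abundance, 55 peaks were lower, 2 were higher and the median was −0.39. Over the whole table that setting gave 7156 lower peaks against 8456 in the main fit, so the set lost a larger part of its calls. The smallest adjusted p was at n-TRcct5, n-TRcct3 and n-TRtcg4 (−0.76 ± 0.11, adjusted p = 4.0e-07). At the peak beside n-TAagc8, which the gene does not overlap, the values were 34.9, 52.2 and 44.1 CPM in Th17n with vehicle, against 89.1, 95.5 and 83.3 CPM in iTreg with vehicle (−0.97 ± 0.15, adjusted p = 5.9e-07). At the peak of n-TKctt26 and n-TKctt25, lysine genes on chromosome 1, they were 18.9, 22.9 and 24.6 CPM in Th17n with vehicle, against 46.6, 44.9 and 45.3 CPM in iTreg with vehicle (−1.0 ± 0.18, adjusted p = 1.8e-05). Neither of these peaks had overlapping groups.

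With DFMO in both lineages, 19 peaks were lower in Th17n than in iTreg and 2 were higher, where 37.2% of all tested peaks were called, 22.5% higher and 14.7% lower. The share of the set called lower was thus below that of all tested peaks. The median log2 difference was −0.16, against −0.0045 over all tested peaks, and the groups did not overlap at 39 peaks with Th17n below (19.7% of all tested peaks). Lower peaks numbered 9 without Th17n DFMO replicate 2 and 11 without iTreg DFMO replicate 2, and they numbered 9 when library totals were used without TMM factors. The whole table had 4872, 6138 and 5063 lower peaks in those fits, against 6423 in the main fit. At n-TAagc9 the values were 109, 97.1 and 98.0 CPM in Th17n with DFMO, against 163, 170 and 154 CPM in iTreg with DFMO (−0.67 ± 0.13, adjusted p = 3.1e-05). At n-TStga3, a serine gene on chromosome 10 within 1 kb of an end of Ctnna3, they were 63.8, 61.4 and 69.4 CPM in Th17n with DFMO, against 104, 102 and 108 CPM in iTreg with DFMO (−0.70 ± 0.15, adjusted p = 0.00016). The peak of n-TRcct5, n-TRcct3 and n-TRtcg4 differed by 0.01 ± 0.11 (adjusted p = 0.97).

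Only n-TGgcc11 was called higher in Th17n than in iTreg under both treatments. At n-TGgcc11, a glycine gene inside Vac14 on chromosome 8, the values were 15.1, 16.8 and 14.6 CPM in Th17n with vehicle, against 1.55, 1.33 and 3.53 CPM in iTreg with vehicle (2.76 ± 0.45, adjusted p = 2.3e-06). Its iTreg values came from 3, 6 and 17 counts with vehicle and 21, 4 and 8 with DFMO, so the size of its lineage differences is uncertain. With DFMO the peak had 16.3, 12.8 and 9.73 CPM in Th17n, against 12.7, 1.98 and 2.46 CPM in iTreg (1.36 ± 0.45, adjusted p = 0.014), and animal 1 of iTreg stood apart. That second call was lost without Th17n DFMO replicate 1 or without iTreg DFMO replicate 2 or 3 (adjusted p up to 0.165). Its DFMO changes did not pass, at −0.24 ± 0.38 in Th17n and 1.16 ± 0.53 in iTreg. The second peak called higher in Th17n under DFMO was n-TNgtt10, an asparagine gene on chromosome 3 (0.62 ± 0.25, adjusted p = 0.046). Its call was lost without any one of the 6 libraries except iTreg DFMO replicate 2 (adjusted p up to 0.388).

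The changes were also set against the level of the peaks. When the 151 peaks were ordered by CPM/kb in iTreg with vehicle, libraries that do not enter the Th17n contrast, the 51 lowest (4.89 to 35.3 CPM/kb) had a median Th17n change of 0.93, the middle 50 one of 0.73 and the 50 highest (55.9 to 141 CPM/kb) one of 0.54. The peaks called higher did not follow that order, with 26 of 51 in the lowest, 34 of 50 in the middle and 29 of 50 in the highest. The Spearman rho of that level with the Th17n change was −0.27, and that of peak width with the Th17n change −0.35. Level, width and gene number are related to each other in these peaks.

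The genes of the machinery that transcribes and matures tRNAs were read out by the peaks within 1 kb of their ends. Of 36 genes of RNA polymerase III and its factors, 33 had a peak, 37 peaks in all. In Th17n 4 of the 37 (10.8%) were higher with DFMO and 1 (2.7%) was lower (median 0.23). In iTreg 0 were higher and 1 (2.7%) was lower (median 0.19). Over all tested peaks, 4.5% were higher and 4.28% lower in Th17n, and 3.84% higher and 4.72% lower in iTreg. The peak of Gtf3c2, a TFIIIC subunit, averaged 87.5 ± 1.01 CPM in Th17n with DFMO and 55.5 ± 4.99 CPM in Th17n with vehicle (SD, n = 3 each; log2 0.66 ± 0.14 SE, adjusted p = 0.0012). Gtf3a, the 5S rRNA gene factor TFIIIA, changed by 0.94 ± 0.21 (adjusted p = 0.0028) and Snapc5, a subunit of the complex that binds snRNA gene promoters, by 0.73 ± 0.16 (adjusted p = 0.0018). The Snapc5 call was lost without Th17n vehicle replicate 3 (adjusted p = 0.0567). The lower one was at the far end of Polr3b, a polymerase subunit (−1.21 ± 0.30, adjusted p = 0.0059), a call lost without Th17n vehicle replicate 2 (adjusted p = 0.0698). In iTreg the lower one was at Polr2h, a subunit shared with polymerase II (−0.35 ± 0.11, adjusted p = 0.041), a call lost without iTreg DFMO replicate 1 or 3 or iTreg vehicle replicate 2 or 3 (adjusted p up to 0.309). The remaining higher peak, at Polr3e, is itself a member, since n-TLaag4 lies in it. Its call (adjusted p = 0.013) was lost without any one of the 6 Th17n libraries (adjusted p up to 0.146), with offsets fitted by abundance and after thinning (up to 0.107).

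Of 47 genes of tRNA processing, modification and export, 44 had a peak, 52 peaks in all. In Th17n 1 was higher and 1 lower (1.92% each, median 0.10), and in iTreg 5 were higher (9.6%) and 0 lower (median 0.08). The Th17n shares were below the 4.5% higher and 4.28% lower of all tested peaks. The iTreg share of higher peaks was above the 3.84% of all tested peaks. In Th17n the higher one was at Rpp25, a subunit of RNase P (1.23 ± 0.29, adjusted p = 0.0048), and the lower one at Elac1, related to the tRNA 3' endonuclease Elac2 (−0.62 ± 0.20, adjusted p = 0.042). The Rpp25 call was lost after thinning (adjusted p = 0.0608). The Elac1 call was lost without Th17n DFMO replicate 2 or 3 or Th17n vehicle replicate 2 or 3 (adjusted p up to 0.199). In iTreg the smallest adjusted p was at Trnt1, which adds the CCA end to tRNAs (41.3 ± 9.72 CPM with DFMO and 20.5 ± 1.16 CPM with vehicle, SD, n = 3 each; log2 0.99 ± 0.23 SE, adjusted p = 0.0040). Ctu1, a tRNA thiolation enzyme (0.83 ± 0.20), Elac2 (0.64 ± 0.17) and Rpp38, another RNase P subunit (0.55 ± 0.15), followed with adjusted p of 0.0066, 0.011 and 0.012. The Ctu1 call was lost without iTreg DFMO replicate 3 (adjusted p = 0.0625), that of Elac2 without iTreg DFMO replicate 3 or iTreg vehicle replicate 2 (up to 0.102) and that of Rpp38 without iTreg DFMO replicate 3 or iTreg vehicle replicate 2 or 3 (up to 0.161). The fifth was at Qtrt2, a subunit of the enzyme that puts queuine into tRNAs (adjusted p = 0.037), and its call was lost without any one iTreg library other than vehicle replicate 1 (up to 0.174), with offsets fitted by abundance, without the filter and after thinning (up to 0.107).

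The labelled lineages were checked at marker genes. All 6 T cell genes had a peak at a gene end, and 0 of their 8 peaks passed in either DFMO comparison. The peak at an end of Il17a, the defining cytokine of Th17 cells, averaged 8.83 CPM in Th17n with DFMO, 22.3 CPM in Th17n with vehicle, 3.31 CPM in iTreg with DFMO and 0.850 CPM in iTreg with vehicle. Of the 6 Th17 genes, 4 had a peak and 4 of their 5 peaks were tested. With vehicle, 3 of the 4 were higher in Th17n than in iTreg, and 1 of the 2 peaks at Ccr6, a chemokine receptor of Th17 cells, was lower (−1.07, adjusted p = 0.039). DFMO lowered 1 of the 4 in each lineage and raised 0. These were Il17a in Th17n (−1.28, adjusted p = 0.019) and the other Ccr6 peak in iTreg (−0.72, adjusted p = 0.038). At Il17a the iTreg change was 1.49 (adjusted p = 0.12) and the difference of the effects −2.78 (adjusted p = 0.033). Of the 5 Treg genes, 2 had no peak within 1 kb of a gene end, among them Foxp3, which defines Treg cells. The 5 peaks of the other 3 Treg genes went against the label where they passed with vehicle. In that comparison 2 were higher in Th17n than in iTreg and 0 were lower, with differences of 1.82 at Il2ra, an IL-2 receptor chain (adjusted p = 1.3e-09), and 1.21 at Ctla4, an inhibitory receptor (adjusted p = 1.9e-05). Each of these genes had another peak that did not pass, at −0.02 for Il2ra (adjusted p = 0.92) and 0.25 for Ctla4 (adjusted p = 0.40). With DFMO 3 of the Treg peaks were higher in Th17n and 1, at Ikzf2, was lower. Between DFMO and vehicle, 2 Treg peaks were lower in Th17n and 2 in iTreg. Among them was the Ctla4 peak that differed between lineages with vehicle (−1.70 in Th17n and −1.20 in iTreg). Of the markers of other cells, 1 of 5 B cell genes, 2 of 5 myeloid genes and 2 of 5 CD8 and NK genes had a peak. Of these 5 peaks, 0 were higher with DFMO in either lineage and 1, among the CD8 and NK genes, was lower in iTreg. The part of other cells in the tRNA gene results was not tested.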

How the data were processed

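ATAC-seq libraries were made from 12 cultures (3 animals in each of 4 groups). Per the submitters' processing notes, Trimmomatic, FastQC, Bowtie2 and MACS2 were used with build mm10; the sources used here state no versions, no read filters and no treatment of reads with several matches. The deposited values are whole-number counts per peak in a table of the whole series, which the authors made over 1 set of peaks; all 12 count columns were used (0 left out). Whether peak starts count from 0 or 1 is not stated, and coordinates are given as deposited. Peaks were joined to RefSeq genes of GRCm38.p6, which hold no strand in the table used. The 22 mitochondrial tRNA genes were not used, and some nuclear genes are not analysed here.

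Counts were filtered with filterByExpr (minimum count 10), scaled by TMM and tested with edgeR 4.0.16 (R 4.3.3): quasi-likelihood test, trended dispersion, 4 group means without a block, Benjamini-Hochberg over 43726 peaks, threshold 0.05. SE is the absolute log2 fold change divided by the square root of F. CPM use library totals in peaks times TMM factors. Alternatives were DESeq2 1.42.0, other scalings, no filter, a block for animal, fits of the compared groups alone, counts thinned to the shallowest library, each library left out, and other member rules; the edgeR step was tested on simulated counts. The labels give each animal's number in all 4 groups, so numbers pair the samples; deviations of the 18 same-animal pairs correlated at −0.0549 to 0.0747, and 7 of 12 libraries correlated best with their own animal. No 2 replicates agreed within sampling noise (lowest chi-square per degree of freedom 2.08).

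The members and gene lists were chosen with earlier results of these data known. Named were, per comparison, up to 8 higher and 8 lower members with the smallest adjusted p, the 6 highest per kb, the 6 with most tRNA genes, those with a significant interaction and up to 4 list peaks per DFMO comparison; the 3 genes with printed sequence, the extremes and counts of few were added.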

Additional observations from a re-analysis of the deposited data

Results flagged for a closer look

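At 6 peaks the change with DFMO differed between the lineages in a direct test of the difference (edgeR interaction, Benjamini-Hochberg over all tested peaks), and in each the change in Th17n exceeded that in iTreg. The differences on the log2 scale were 1.05 at n-TIaat5, n-TSaga4 and n-TTagt8 (adjusted p = 0.0216), 0.788 at n-TPcgg3, n-TDgtc9, n-TGtcc6 and n-TWcca7 (adjusted p = 0.00669) and 0.854 at n-TIaat4, n-TTagt7, n-TSgct3 and n-TWcca6 (adjusted p = 0.011). The remaining differences were 0.764 at n-TRcct5, n-TRcct3 and n-TRtcg4 (adjusted p = 0.00622), 1.14 at n-TFgaa6 (adjusted p = 0.0386) and 0.96 at n-TKctt15 (adjusted p = 0.047).

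Each of these calls was lost when certain single libraries were left out. The peak of n-TRcct5 lost it without Th17n DFMO replicate 1, Th17n vehicle replicate 1 or iTreg DFMO replicate 3 (adjusted p up to 0.0763), and that of n-TPcgg3 without iTreg DFMO replicate 1 or 3 (up to 0.0774). The peak of n-TIaat4 lost it without Th17n DFMO replicate 1 or 2, Th17n vehicle replicate 3 or iTreg DFMO replicate 1 or 3 (up to 0.0831). The peak of n-TIaat5 kept it only without iTreg DFMO replicate 2 or iTreg vehicle replicate 1 or 3 (otherwise up to 0.124), n-TKctt15 only without iTreg DFMO replicate 2 or iTreg vehicle replicate 1 (otherwise up to 0.202), and n-TFgaa6 only without iTreg DFMO replicate 2 (otherwise up to 0.197). The n-TFgaa6 call was also lost with DESeq2, RLE size factors, offsets fitted by abundance, no filter and thinning (up to 0.225), and that of n-TKctt15 with RLE size factors, offsets by abundance, no filter and thinning (up to 0.389). Thinning also ended the calls at the peaks of n-TRcct5, n-TIaat5 and n-TPcgg3 (adjusted p of 0.14, 0.132 and 0.13). The peak of n-TIaat4 kept its call in all these other settings (up to 0.0269).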

How the results depend on the processing

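In Th17n, of the 89 higher peaks 83 were called by DESeq2, 85 with RLE size factors, 88 with library totals, 82 with offsets fitted by abundance, 81 without the filter, 88 with the replicate block, 88 with the compared groups alone and 60 after thinning. Of the 30 in iTreg, 29 or 30 kept the call in all of these except thinning, where 17 did. Leaving out 1 library gave 51 to 68 higher in Th17n (0 lower each time), with 44 of the 89 kept in all 6 fits, and 13 to 29 higher and 0 to 1 lower in iTreg, with 11 of the 30 kept in all 6. With members within 1 kb, 1 was lower in each lineage.

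The count of larger effects in Th17n was 10 with the replicate block (animal), 1 after thinning, 3 among members without a protein-coding gene end and 0 to 14 with 1 library left out. Over the whole table that count was 365 in the main fit, 448 with the block, 97 after thinning and 108 to 947 with 1 library left out. For Th17n against iTreg with vehicle, offsets by abundance gave 2 higher, 55 lower and a median of −0.389, and thinning gave 55 lower. Over the whole table lower peaks there numbered 7156 with these offsets and 3783 after thinning, against 8456 in the main fit. For Th17n against iTreg with DFMO, higher peaks numbered 1 with DESeq2, without the filter, with the compared groups alone and after thinning, 5 with offsets by abundance, and 0 to 4 with 1 library left out. Lower ones numbered 9 with library totals, 8 with offsets by abundance, 7 after thinning and 9 to 22 with 1 library left out. Over the whole table these counts were 5063, 5740, 3436 and 4872 to 6504, against 6423 in the main fit. With offsets by abundance, n-TQttg6 reversed to 0.0323 with vehicle and 0.0151 with DFMO, and n-TIaat16 to 0.0115 with vehicle. The causes of these shifts were not tested. The replicate block moved no other count by over 1.5 times and gave 4 further calls of named peaks: n-TDgtc14 (−0.47) and n-TLcaa1 (−0.55) between lineages with vehicle, n-TEttc7 with DFMO in Th17n (0.61) and n-TNgtt10 in the difference of effects (1.31). Thinned to 1020937 counts, 144 members could be tested, and the others fell below the filter on low counts.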
